A study of Homo sapiens with 6 samples.

Results

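The S100 calcium-binding proteins studied here were 9 genes, S100A2, S100A4, S100A6, S100A10, S100A11, S100A13, S100A14, S100A16 and S100P, taken by gene name from the 58735 genes of the deposited table. The family holds 12 further genes in that table. RNA was sequenced from Hep-G2, a line derived from a human liver tumor, in 3 libraries of cells with a hairpin that targets CLGN (sh-CLGN) and 3 libraries of cells with a control hairpin (sh-NC). The comparison asks which transcripts change when calmegin, a chaperone of the endoplasmic reticulum, is depleted. The labels give the genotypes as WT and CLGN knock down, and all 6 libraries carry one batch entry, 0DAY. Per the study's methods the hairpins were delivered by lentivirus with puromycin selection, with 1 hairpin sequence per group, so the hairpin, the culture and the loss of CLGN cannot be told apart. Nothing in the labels says that the 3 libraries of a group came from separate cultures, and p-values then measure only the spread between these libraries.

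S100 proteins are small dimers in which each subunit carries a pair of EF-hands, the helix-loop-helix motif that binds calcium. Calcium binding opens a hydrophobic face through which most of them dock on a target such as an annexin or a myosin, and several are also released from cells and act on surface receptors such as RAGE. Most S100 genes lie in one cluster on chromosome 1 beside genes of skin differentiation, and S100P lies alone on chromosome 4. In liver, S100P and S100A9 are better known from tumors and from myeloid cells, respectively, than from healthy hepatocytes.

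The values were FPKM, fragments scaled to gene length and library size, and whole reads could be recovered from them. The libraries held 14955816 to 16244639 reads, with the groups overlapping in depth. Of all genes, 13074 reached at least 1 FPKM in at least 3 libraries and were tested with limma on log2(FPKM + 1), the scale of every log2 change below. CLGN itself went from 23.8 ± 2.54 to 8.98 ± 0.453 FPKM (SD, n = 3; log2 change -1.31, limma adjusted p = 8.35e-06), with no overlap between the groups. More genes had a read in sh-CLGN, 26814 to 27006 per library against 23578 to 23793, and more of the reads were mitochondrial, 5.49% to 5.80% against 3.25% to 4.02%. Hepatocyte markers were present in every library, with ALB and AFP above 1000 FPKM. Of the 10 markers 9 were called, 3 higher and 6 lower, where 65.8% of all tested genes were called. Of 9 fibroblast and mesenchymal markers 5 were tested and called higher in sh-CLGN, of which COL1A1, COL3A1 and LUM passed the filter only through sh-CLGN and had to be higher. The sum over the list went from 7.17 to 8.51 FPKM in sh-NC to 48.5 to 49.9 FPKM in sh-CLGN, while its members DCN, THY1 and FAP had at most 1 read in any library. The part of these differences in the S100 values was not tested.

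The family split into genes that fell, genes that rose and genes whose groups overlapped. S100P and S100A10, both abundant, were lower in sh-CLGN, at 45.9% and 67.2% of the sh-NC mean, and the rare S100A14 was lower as well. S100A11, the most abundant S100 gene of the sh-CLGN cells, was higher at 134% of the sh-NC mean, and S100A13 at 148%. S100A6 and S100A16 were not distinguishable from their replicate spread, and S100A2 and S100A4 were below the expression filter. In bulk RNA, a smaller share of cells with a transcript and less of it per cell cannot be told apart. Of the 7 members tested, 2 were higher (26.7% of all tested genes were) and 3 were lower (39.0% of all tested genes were) at an adjusted p of at most 0.05. Over all genes this balance turned with the scaling, from 3496 higher and 5102 lower to 5048 and 3407 with read totals and 5604 and 3994 with TPM, while the 5 called members kept their directions. The 5 called members of 7 stand beside 65.8% called among all tested genes in either direction, so the count does not set the family apart. The libraries of the groups were separate for 5 of the 7 members, 2 higher and 3 lower, beside 70.2% of all tested genes, 28.7% higher and 41.5% lower. S100A14 passed the filter only through the sh-NC libraries and therefore had to differ. The median log2 change of the 7 members was -0.22, beside -0.08 over all tested genes.

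**Figure D1:**
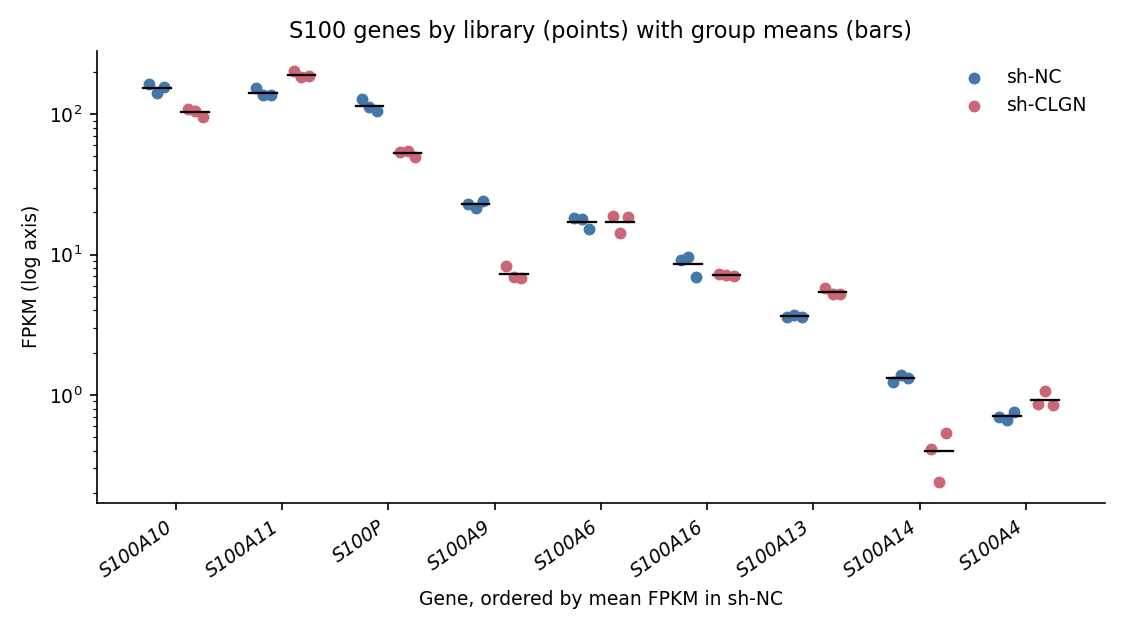
FPKM of 9 S100 genes on a log axis, with each point a library (3 sh-NC, 3 sh-CLGN) and bars at group means. S100A11 overtakes S100A10 in sh-CLGN, S100P and S100A9 drop, and the groups overlap for S100A6 and S100A16.

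S100P (ENSG00000163993, chromosome 4, 6693069 to 6697170, plus strand) was first isolated from placenta and binds ezrin, CACYBP and RAGE. The sh-NC libraries stood at 127, 112 and 105 FPKM, in the order of their replicate numbers as in all such lists, and the sh-CLGN libraries at 53.8, 54.5 and 49.3 FPKM. Every sh-CLGN library lay below every sh-NC library, at 1019 to 2274 reads per library. The mean went from 115 ± 11.6 to 52.6 ± 2.83 FPKM (SD, n = 3), which is -1.11 on the log2 scale (SE 0.078, limma adjusted p = 1.44e-05). It was the only member that also changed by at least 1 on the log2(FPKM + 1) scale; 6.28% of all tested genes passed both thresholds, 3.09% higher and 3.19% lower. With the GC trend removed from each library the change was -0.95, and with quantile normalization it was -0.83, both still called. With TPM scaling it was -0.99. With TPM and with quantile normalization S100A14, at -1.18 and -1.02, was the member past both thresholds instead.

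S100A10 (ENSG00000197747, chromosome 1, 151982915 to 151994390, minus strand), also called p11, has lost calcium binding and sits permanently in its open form in a complex with annexin A2 at the plasma membrane. It was at 165, 142 and 157 FPKM in sh-NC and at 110, 106 and 95.6 FPKM in sh-CLGN. The groups did not overlap, and the mean went from 155 ± 11.7 to 104 ± 7.32 FPKM (SD, n = 3), or -0.57 on the log2 scale (SE 0.074, adjusted p = 0.000291). Quantile normalization moved this change to -0.23, where it was still called (adjusted p = 0.0132).

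S100A11 (ENSG00000163191, chromosome 1, 152032506 to 152047907, minus strand), also called calgizzarin, binds annexin A1 and takes part in membrane repair. It was at 153, 137 and 137 FPKM in sh-NC and at 202, 184 and 188 FPKM in sh-CLGN. All sh-CLGN libraries were above all sh-NC libraries, with means of 142 ± 9.17 and 191 ± 9.51 FPKM (SD, n = 3) and a log2 change of 0.42 (SE 0.062, adjusted p = 0.000548). With quantile normalization the change was 0.73. Its pseudogenes S100A11P1 and S100A11P2 had at most 2 reads in any library, and the antisense gene AL450992.1 at most 8.

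S100A13 (ENSG00000189171, chromosome 1, 153618787 to 153631360, minus strand) helps release FGF1 and interleukin 1 alpha, which lack signal peptides. Its values were 3.59, 3.74 and 3.62 FPKM in sh-NC against 5.75, 5.20 and 5.23 FPKM in sh-CLGN, from 111 to 216 reads per library. The groups were separate and the log2 change was 0.46 (SE 0.062, adjusted p = 0.000355). S100A1 overlaps it on the opposite strand, and whether counting used strand is not given in the sources used here.

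S100A14 (ENSG00000189334, chromosome 1, 153614255 to 153616986, minus strand), an epithelial member with a degenerate EF-hand, was at 1.23, 1.39 and 1.32 FPKM in sh-NC and at 0.415, 0.239 and 0.534 FPKM in sh-CLGN. These values came from 22, 26 and 26 reads in sh-NC and 9, 5 and 11 reads in sh-CLGN. The log2 change was -0.73 (SE 0.11, adjusted p = 0.000641), and with a pseudocount of 0.1 it was -1.56, since the pseudocount of 1 is close to the level of this gene. Its mean fell to 30.1% of that in sh-NC, and the exact 95% counting interval of the ratio of scaled reads ran from 0.183 to 0.478.

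S100A6 (ENSG00000197956, chromosome 1, 153534599 to 153536244, minus strand), calcyclin, binds the ubiquitin ligase adaptor CACYBP. It was at 18.2, 17.8 and 15.2 FPKM in sh-NC and at 18.8, 14.1 and 18.4 FPKM in sh-CLGN. The groups overlapped and the log2 change was 0.00, with a 95% interval from -0.26 to 0.26 (adjusted p = 0.995). S100A6 was the only uncalled member that passed with the GC trend removed (log2 change 0.26, adjusted p = 0.0409).

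S100A16 (ENSG00000188643, chromosome 1, 153606886 to 153613145, minus strand), a widely expressed member, was at 9.14, 9.66 and 6.95 FPKM in sh-NC and at 7.31, 7.17 and 7.06 FPKM in sh-CLGN. Replicate 3 of sh-NC lay below all sh-CLGN libraries and the other two lay above them. The log2 change was -0.22, with a 95% interval from -0.46 to 0.03 (adjusted p = 0.104). Without sh-NC replicate 3 it was -0.35 and called (adjusted p = 0.00113), and with the GC trend removed it was 0.020, so both its call and its direction rest on the setting.

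**Figure D2:**
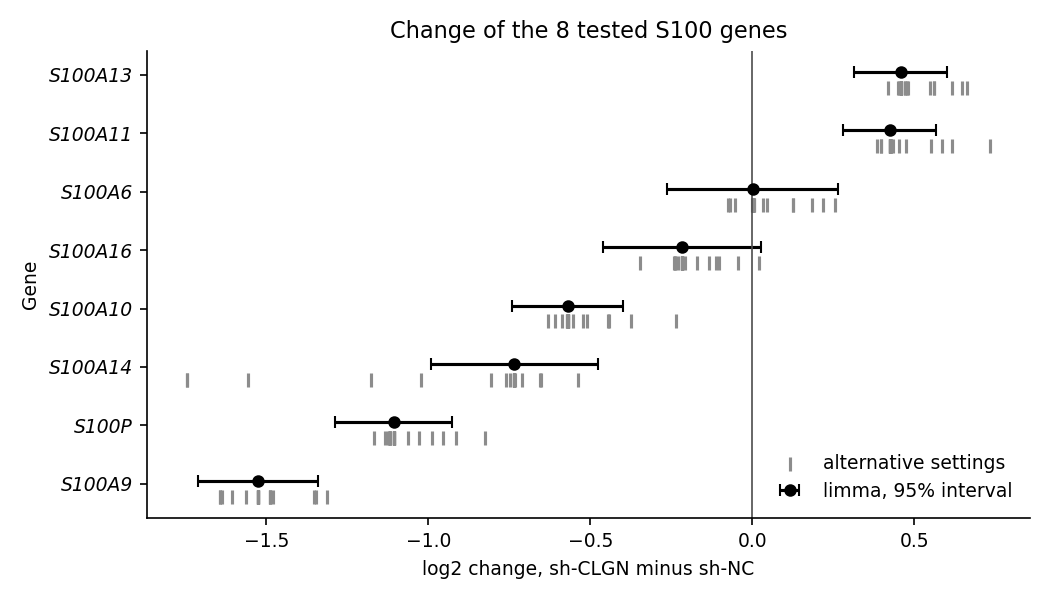
Log2 change (sh-CLGN minus sh-NC, log2(FPKM + 1)) of the 8 tested S100 genes, with black points and bars the limma estimate and its 95% interval and grey ticks the values under the alternative settings. S100P, S100A9, S100A10 and S100A14 stay below 0 and S100A11 and S100A13 above 0 under every setting shown, while S100A6 and S100A16 cross 0.

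Reads were few for S100A4 and S100A2. S100A4 (ENSG00000196154, chromosome 1, 153543613 to 153550136, minus strand), metastasin, binds nonmuscle myosin IIA and is linked to motility. Its sh-NC libraries held 10, 10 and 12 reads and its sh-CLGN libraries 15, 18 and 14, or 0.699, 0.668 and 0.757 FPKM against 0.863, 1.07 and 0.846 FPKM. The sh-CLGN libraries were all above the sh-NC libraries with over 3 reads each, which held for 27.3% of the 9013 genes below the filter that had at least 10 reads. The ratio of scaled reads was 1.31 with an exact 95% interval of 0.816 to 2.12, and no difference was detectable at this depth. In the fits that included it the adjusted p was 0.0642 to 0.452. S100A3 overlaps S100A4 on the same strand and may share its reads.

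S100A2 (ENSG00000196754, chromosome 1, 153561108 to 153567890, minus strand), a nuclear member known from squamous epithelia, was read 0, 1 and 0 times in the sh-NC libraries and 9, 6 and 1 times in the sh-CLGN libraries. Replicate 3 of sh-CLGN was at the sh-NC level, and the groups overlapped. The ratio of scaled reads was 14.2, with an exact 95% interval of 2.21 to 597 for counting error only. Voom on genes with at least 3 reads called S100A2 higher (adjusted p = 0.0363, where 20.7% of genes were called higher and 19.4% lower), and limma on log2(FPKM + 1) without a filter did not (log2 change 0.24, adjusted p = 0.124). Of 7 squamous and basal markers 2 were tested, with SFN lower (log2 change -0.84, adjusted p = 0.000114) and DSG3 not called. The list summed to 11.2 to 13.7 FPKM in control libraries and 6.52 to 7.35 FPKM after knockdown, with KRT5 and KRT6A at 0 reads throughout, and its part in the S100A2 reads was not tested.

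Among the other 12 S100 genes, 1 passed the filter. S100A9, the calprotectin subunit of myeloid cells, was at 22.9, 21.6 and 24.1 FPKM in sh-NC and at 8.27, 6.87 and 6.76 FPKM in sh-CLGN. The mean fell to 32.0% of that in sh-NC (log2 change -1.53, SE 0.080, limma adjusted p = 4.60e-06). S100A8, its usual dimer partner, had 1 read in 1 library and 0 reads in the other 5. Of 8 myeloid and leukocyte markers 2 were tested, LYZ and CD14, and both were called lower. LYZ, at 60.7 to 76.2 FPKM, fell by 0.19, near the 0.16 by which read-total scaling raised the median over all genes. CD14 passed the filter only through sh-NC and had to be lower, at 1.18 to 1.45 FPKM against 0.394 to 0.647 FPKM. CD68, CSF1R and PTPRC had at most 4 reads in any library. The part of these markers in the S100A9 values was not tested. For S100A1, reads numbered 3, 5 and 2 in the control libraries and 13, 8 and 19 after knockdown. For S100A3 they numbered 2, 0 and 1 in the control libraries and 9, 14 and 6 after knockdown. S100Z had 1 to 7 reads and S100G at most 1 read per library, with overlapping groups. S100A5, S100A7, S100A7A, S100A7L2, S100A12 and S100B had 0 reads in all 6 libraries. A count of 0 in a single library allows a level of up to 3 reads there, and 0 in all 6 libraries allows less per library.

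**Figure D3:**
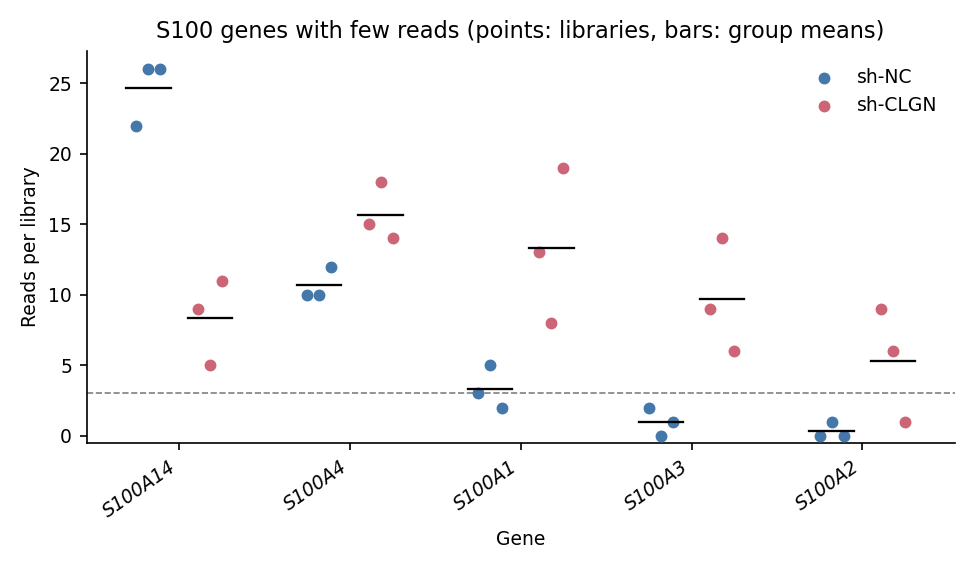
Reads per library for 5 S100 genes with few reads, with points the libraries, bars the group means and the dashed line 3 reads. S100A14 is lower in sh-CLGN, the sh-CLGN points of S100A4, S100A1 and S100A3 lie above their sh-NC points, for S100A4 without a detectable difference in scaled reads, and the S100A2 groups overlap at 1 read.

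Ordered by level, the same 3 genes led both groups. FPKM is scaled by gene length, here the annotated length and not that of the expressed transcript, so the order of different genes also depends on the annotation. In sh-NC the order was S100A10, S100A11, S100P, S100A9, S100A6, S100A16, S100A13, S100A14 and S100A4, and among these only S100A10 overlapped the next gene, S100A11. In sh-CLGN the order was S100A11, S100A10, S100P, S100A6, S100A9, S100A16, S100A13 and S100A4. S100A9 and S100A16 overlapped there, at means of 7.30 and 7.18 FPKM, while S100A11 stood clear of S100A10. Below S100A13 in sh-CLGN, each of S100A4, S100A3, S100A14, S100A1 and S100A2 overlapped its next neighbor.

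Summed over all S100 genes, expression was 446 to 501 FPKM in sh-NC and 373 to 408 FPKM in sh-CLGN. Unlike the shares below, the sum depends on the scaling of each library. For control libraries the size behind the FPKM was 0.933 to 0.953 of the recovered reads. After knockdown it was 1.07 to 1.08 of them, which lowers the FPKM relative to read totals. Whether the groups stay apart in the sum with read totals was not tested. S100A10, S100A11 and S100P together made up 87.7% to 88.8% of that sum in control libraries and 89.3% to 90.5% after knockdown. Within them the make-up differed. The S100A11 share was 30.4% to 30.8% in control libraries and 48.3% to 50.5% after knockdown. The S100P share was 23.2% to 25.4% and then 13.2% to 14.3%, and the S100A10 share 31.8% to 34.9% and then 25.6% to 27.9%. The ratio of S100A11 to S100A10, which scaling a library by one factor cannot alter, was 0.930, 0.970 and 0.871 in control libraries and 1.84, 1.73 and 1.97 after knockdown.

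**Figure D4:**
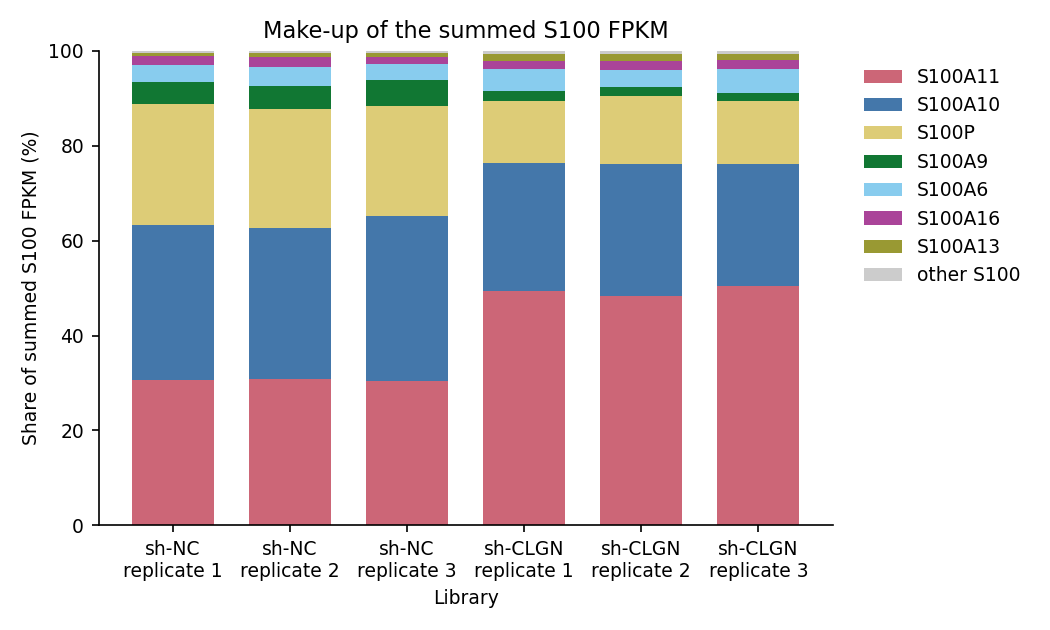
Share of the summed S100 FPKM (percent) taken by each gene in each of the 6 libraries. The S100A11 share rises from 30.4% to 30.8% in sh-NC to between 48.3% and 50.5% in sh-CLGN, and the S100P share shrinks to 13.2% to 14.3%.

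S100A10 and S100A11 are neighbors, 38.1 kb apart on one strand, and moved in opposite directions. Their promoters and that of S100P, the member with the largest change on the log2(FPKM + 1) scale, are shown for this reason as RefSeq gives them on GRCh38.p14, from 250 bases before to 50 bases after the annotated start, on the gene's strand. Windows were found for 19 of the 21 S100 genes, 26 windows in all. Capitals mark matches on either strand to the GC box GGGCGG or the TATA box TATAAA, motifs chosen after the values were seen.
S100A10 promoter, chr1:151993810-151994109, minus strand: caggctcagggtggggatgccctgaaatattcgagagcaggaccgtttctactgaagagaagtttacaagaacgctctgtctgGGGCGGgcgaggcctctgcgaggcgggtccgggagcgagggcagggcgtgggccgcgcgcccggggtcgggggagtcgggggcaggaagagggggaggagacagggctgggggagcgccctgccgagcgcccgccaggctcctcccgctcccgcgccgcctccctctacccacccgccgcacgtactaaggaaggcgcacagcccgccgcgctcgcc
S100A11 promoter, chr1:152036955-152037254, minus strand: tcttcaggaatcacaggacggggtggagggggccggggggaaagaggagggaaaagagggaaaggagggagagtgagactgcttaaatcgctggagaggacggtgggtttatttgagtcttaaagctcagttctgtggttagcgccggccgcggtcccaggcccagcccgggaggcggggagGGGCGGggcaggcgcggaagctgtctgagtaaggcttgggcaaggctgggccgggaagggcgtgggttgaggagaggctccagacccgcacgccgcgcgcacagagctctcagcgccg
S100P promoter, chr4:6693628-6693927, plus strand: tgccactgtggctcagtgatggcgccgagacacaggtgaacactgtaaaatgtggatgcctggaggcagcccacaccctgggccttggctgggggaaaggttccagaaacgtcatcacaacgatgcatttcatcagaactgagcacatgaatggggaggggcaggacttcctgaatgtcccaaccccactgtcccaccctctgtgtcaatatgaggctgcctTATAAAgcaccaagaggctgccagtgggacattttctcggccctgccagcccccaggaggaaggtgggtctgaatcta

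The S100A10 and S100A11 windows each held a GC box and no TATA box, with GC contents of 71.7% and 65.3%. The S100P window held a TATA box whose first base lies 28 bases before the start, and no GC box. Over the 26 S100 windows, 11 held TATAAA, beside 11.5% of all 35116 promoter windows, and 7 held GGGCGG, beside 45.0% of all windows. Overlapping windows of S100A8 hold the same TATAAA. Counted by gene, 10 of 19 had a window with TATAAA and 7 one with GGGCGG. The shares over all promoters are per window, and no share per gene was computed to set beside these counts. Among the other members TATAAA was in the windows of S100A4 and S100A13, and GGGCGG in those of S100A6, S100A13 and S100A16. The AP-1 motif TGANTCA was in a window of S100A2 (7.7% of all windows), and the NF-kB motif, searched because the study follows that pathway, was in the S100A14 window alone among the 26 (9.1% of all windows). The GC box thus stood before S100A10, which fell, and S100A11, which rose, and TATAAA before S100P, which fell, and in 1 of the 3 windows of S100A13, which rose. A match or its lack in 300 bases says nothing of what binds there.

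The stretch of chromosome 1 from S100A10 to S100A1, 151982915 to 153632039, holds 90 annotated genes, 17 of them S100 genes. Of these 17, 7 were expressed above the filter, namely S100A6, S100A9, S100A10, S100A11, S100A13, S100A14 and S100A16. Of the other 73 genes, among them filaggrin and the late cornified envelope genes, 0 passed and 61 had no read in any library. Their highest value in any library was 0.572 FPKM, 3 reads on the pseudogene LCEP4. The fused-type S100 genes of the stretch were at the same low level, with FLG at 8 to 23 reads in control libraries and 3 to 6 after knockdown, and 4 of the 7 without a read. Within the cluster S100A14 and S100A13, 1.80 kb apart, moved in opposite directions like S100A10 and S100A11. S100A14, however, passed the filter only through sh-NC and had to be lower, with 5 to 11 reads per sh-CLGN library. In the flanks, 1000 kb on either side, 51 genes were tested, of which 9 were higher and 24 lower, with a median log2 change of -0.18. Over all tested genes 26.7% were higher and 39.0% lower, with a median of -0.08.

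Annexins, calcium-dependent membrane binders, are the best known partners of S100A10, S100A11 and S100A6. Of the 13 annexin genes 10 were tested, 3 of them higher, 4 lower and 3 not called, with a median log2 change of 0.01. The shares over all tested genes were 26.7% higher and 39.0% lower. With read totals 5 annexin genes were higher and 4 lower. ANXA1, the partner of S100A11, rose from 1.32 ± 0.189 to 13.5 ± 0.493 FPKM (SD, n = 3; log2 change 2.64, SE 0.075, adjusted p = 5.98e-07). ANXA2, the partner of S100A10, was at 79.5 to 81.4 FPKM in sh-NC and at 81.4 to 83.8 FPKM in sh-CLGN, a difference of 0.03 on the log2 scale (SE 0.041, adjusted p = 0.526). The ratio of S100A10 to ANXA2 was 2.05, 1.78 and 1.93 in control libraries and 1.31, 1.30 and 1.17 after knockdown. On the log2 scale it differed by -0.61 (SE 0.078), and a two-sided exact permutation test gave p = 0.1, the smallest that 3 against 3 libraries allow. ANXA3 (1.08) rose, and ANXA13 (-1.34), ANXA11 (-0.61), a partner of S100A6, and ANXA4 (-0.38) fell.

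Of the 21 genes for intracellular partners 19 were tested, with a median log2 change of -0.09. Of these 4 were higher, 8 lower and 7 not called, beside 26.7% higher and 39.0% lower over all tested genes. With read totals and with TPM 7 were higher and 7 lower, and with quantile normalization 9 were higher and 6 lower. SYT1 passed the filter only through sh-NC. AHNAK, a giant scaffold held at the membrane by the S100A10 and annexin A2 complex, rose from 24.3 ± 2.48 to 53.2 ± 4.28 FPKM (219% of the sh-NC mean, adjusted p = 2.41e-05). CAPZA2, an actin capping subunit, rose by 0.61 on the log2 scale. Of the other capping subunits on the list, CAPZA1 fell by 0.44 (limma adjusted p = 0.0017), and CAPZB (-0.14, adjusted p = 0.0655) was not called. For S100P, the ezrin gene EZR fell by 0.21 (limma adjusted p = 0.0037) and S100PBP by 0.45 (adjusted p = 0.00066). The EZR fall is near the 0.16 by which read-total scaling raised the median log2 change over all genes. CACYBP had a log2 change of 0.00 (adjusted p = 0.950). The myosin heavy chain gene MYH9, the partner of S100A4, had a log2 change of -0.08 (adjusted p = 0.361).

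FGF1 and IL1A, the cargo of S100A13, were below the filter. FGF1 reads numbered 0, 2 and 1 in control libraries and 44, 47 and 48 after knockdown, a ratio of scaled reads of 41.2 with an exact 95% interval of 13.8 to 202 for counting error only. IL1A reads numbered 1, 1 and 0 in control libraries and 5, 5 and 4 after knockdown. Of the 6 receptors of extracellular S100 proteins 4 were tested, with a median log2 change of 0.07. Among them 1 was higher and 1 lower, beside 26.7% higher and 39.0% lower over all tested genes. AGER, the gene of RAGE, rose from 1.22 ± 0.287 to 2.21 ± 0.473 FPKM (log2 change 0.53, SE 0.14, adjusted p = 0.0102), and NPTN fell by 0.51. ALCAM (0.16, adjusted p = 0.0694) and BSG (-0.03, adjusted p = 0.752) were not called. CD36, a scavenger receptor named after its values were seen, was read 0, 0 and 2 times in control libraries and 165, 158 and 156 times after knockdown.

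**Figure D5:**
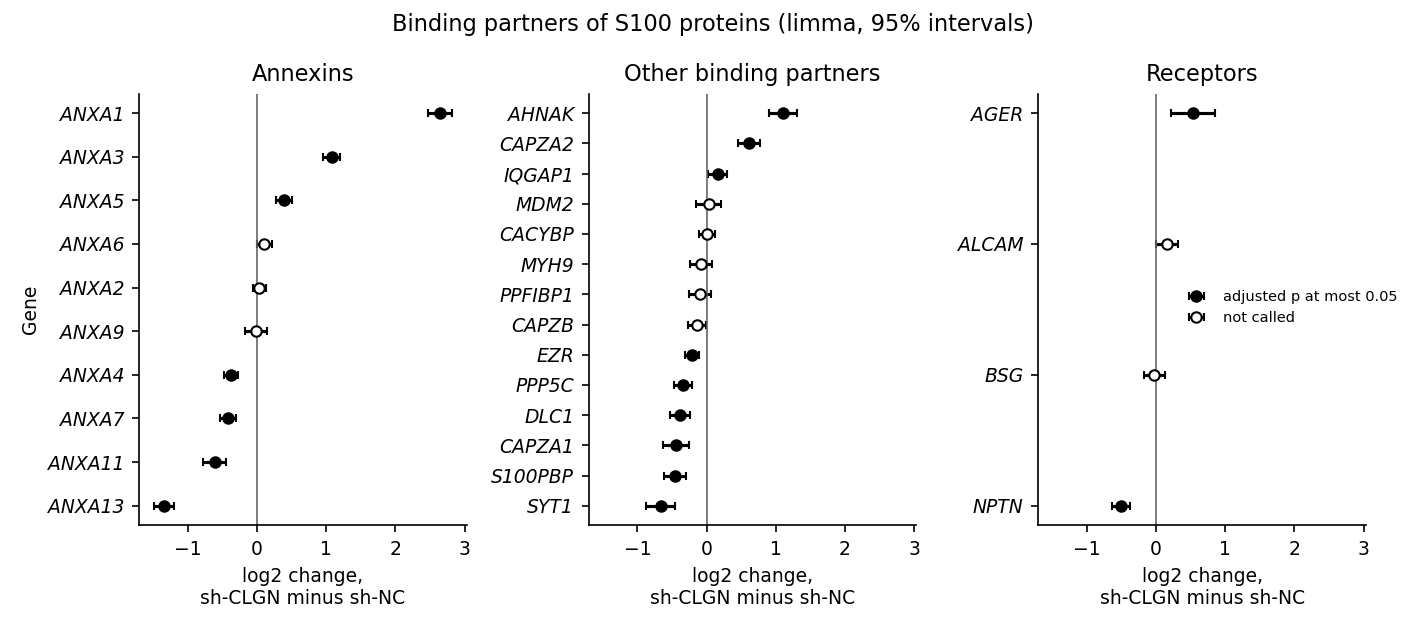
Log2 change (sh-CLGN minus sh-NC) with 95% limma intervals for tested annexins, other reported binding partners and receptors of S100 proteins, with filled points the called genes. ANXA1 stands at 2.64 and AHNAK above 1, while ANXA2 lies at 0.03.

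Plasminogen activation, which the S100A10 and annexin A2 complex serves at the cell surface, was examined through 8 genes. Of 6 tested, 1 was higher and 4 lower, beside 26.7% higher and 39.0% lower over all tested genes. Their median log2 change was -0.22. With TPM and with read totals 1 was higher and 2 were lower. In the main fit ENO1 (-0.61, limma adjusted p = 5.70e-05), PLAU (-0.26, adjusted p = 0.036) and PLG (-0.19, adjusted p = 0.014) fell. The gene that rose, TMSB4X (1.74), encodes an actin-binding peptide rather than a part of plasminogen activation, and it has near-identical copies that make its count uncertain.

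Other EF-hand proteins offered a measure of calcium binders at large. Of 31 genes 26 were tested, with 9 higher, 11 lower and 6 not called and a median log2 change of -0.10, beside 26.7% higher and 39.0% lower over all genes. The balance turned to 12 higher and 7 lower with read totals and to 11 higher and 6 lower with quantile normalization. CAPN2, a calpain subunit, rose from 1.30 ± 0.134 to 6.78 ± 0.357 FPKM (1.76, SE 0.073, adjusted p = 2.07e-06), while its counterpart CAPN1 (-0.75), the phosphatase regulator CHP1 (-0.79) and TESC (-0.82) fell.

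Genes whose levels followed those of S100P most closely over the 6 libraries, among protein-coding genes outside the lists, included SNRPC, RPS3, STOML2 and ID1, with Pearson's r of 0.998 to 0.999. All 4 were lower in sh-CLGN, with log2 changes of -0.70 to -0.39. The 6 libraries form 2 groups, so likeness over them reflects mostly the difference between the groups and is a description only.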

How the data were processed

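RNA of 6 Hep-G2 libraries (3 sh-NC, 3 sh-CLGN) was sequenced after preparation with a NEBNext Ultra kit. The submitters' processing notes name HISAT2 2.0.5, featureCounts and GRCh38. The authors deposited FPKM per gene and library, and all 58735 gene positions equal those of GENCODE 29. FPKM times gene length gave whole reads (within 0.01 of a read) for 100% of values, 14955816 to 16244639 reads per library. Median-ratio size factors of the deposited FPKM were 1.01 in each library, so such a scaling was already in them. No molecular identifiers are named in the sources used here, so intervals and floors (3 reads) cover counting error only. The strand setting of counting is not given in the sources used here, and reads of overlapping genes may be split.

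The 13074 genes that reached 1 FPKM in 3 or more libraries were tested with limma 3.58.1 in R 4.3.3 (eBayes with trend, log2(FPKM + 1), no covariate, two-sided, Benjamini-Hochberg adjustment over all genes tested), which understates the change of low genes. The call threshold was an adjusted p of 0.05. The members and lists were chosen with earlier results of these data known. Named are all members, the other S100 genes with a read, CLGN, the 5 tested genes of smallest adjusted p of each list and the 5 genes most like the member with the largest absolute log2 change (S100P on the scale used). Marker lists are given mainly by counts and sums. Of the genes this rule names, 4 are not reported here, though counts and medians include them. Others, among them the S100 genes without reads, CD36, FLG, EZR, S100PBP, CACYBP, MYH9, CAPZA1, CAPZB, FGF1, IL1A and the marker genes, were chosen after their values were seen. The alternatives were a pseudocount of 0.1, other filters, TPM, median-ratio, quantile and read-total scaling, removal of the GC trend (lowess span 0.3), eBayes settings, voom on the recovered reads, the replicate block and leaving out each library. Libraries of a group differed by more than sampling noise (chi-square per gene 2.12 to 7.85). The limma procedure was tested on simulated data. Exact intervals and permutation tests came from scipy 1.17.1 under Python 3.11.15, and figures from matplotlib 3.10.9. The promoter motifs, the flank windows and the ratio of S100A11 to S100A10 were also chosen after the data were seen.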

Additional observations from a re-analysis of the deposited data

Results flagged for a closer look

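Reads of 7 genes below the expression filter were higher in every sh-CLGN library than in any sh-NC library, with more than 3 reads in each sh-CLGN library, a signal outside the tested genes and above the control libraries. S100A4 had 47 reads over the 3 sh-CLGN libraries against 32 in sh-NC, where the counting interval of the scaled ratio includes 1. S100A1 had 40 against 10 and S100A3 had 29 against 3. Of the partner and receptor genes, FGF1 had 139 reads against 3, IL1A 14 against 2, CD36 479 against 2 and PLAT, the tissue plasminogen activator, 37 against 11. The same held for 27.3% of the 9013 genes below the filter with at least 10 reads. Genes below the filter took on average 1.18% of the reads in sh-CLGN and 0.760% in sh-NC. Reads of S100A1 and S100A3 could also belong to the overlapping S100A13 and S100A4.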

How the results depend on the processing

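CLGN, S100A10, S100A11, S100A13, S100A14, S100P and S100A9 kept their direction and call under each of 13 alternatives and without any 1 library. Voom on genes with at least 3 reads was added after the data were seen. TPM scaling and scaling by read totals moved the median log2 change over all genes by 0.11 and 0.16. With the GC trend removed, S100A6 was called higher (0.26) and S100A16 turned to 0.020. With one library left out, S100A6 ranged from -0.076 to 0.13, S100A16 from -0.35 to -0.13 and the count of plasminogen genes called from 3 to 5, the lowest without sh-CLGN replicate 2. The added voom fit called S100A2 (2.50). Members past both thresholds numbered 0 with the GC trend removed and with read totals, 2 with a pseudocount of 0.1 and with voom on recovered reads, and 3 in the added voom fit, against 1. With TPM and with quantile normalization the count stayed at 1, but the member was S100A14 and not S100P. Other S100 genes called numbered 2 with TPM, with no filter and with a mean of at least 0.1 FPKM, and 3 in the added voom fit, against 1. Genes of the chromosome 1 stretch other than members numbered 2 under the same 3 settings and 4 with that voom fit, against 1. The gene called in the main fit was S100A9, already counted among the other S100 genes. Fused-type genes called numbered 1 with the added voom fit, against 0 in the main fit, which tested none. Receptors called numbered 4 with TPM, quantile normalization and read totals, against 2, and plasminogen genes 3 with TPM and read totals, against 5. Looser filters and TPM, whose values are larger, admit more genes by construction; for the other changes the cause was not tested. Same-numbered libraries did not deviate together (correlations of deviations -0.02, -0.05 and -0.15), and with the replicate block the S100P change was -1.11 and no S100 call changed. Depth limits the genes under about 20 reads per library, S100A2, S100A3 and S100A4 among them.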
